A study of Mus musculus with 15 samples.

Results

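The GDNF family is described here by 5 genes, chosen by symbol in the count files: the receptor tyrosine kinase gene Ret, the co-receptor genes Gfra1 and Gfra2, and the ligand genes Gdnf and Nrtn. They are 5 of the 45777 gene symbols that each file lists, all 5 symbols matched a row, and all 5 passed the filter on low counts. GDNF and its relative neurturin, the product of Nrtn, are secreted survival factors. Each binds a co-receptor anchored to the cell membrane by a lipid, GDNF mainly the product of Gfra1 and neurturin mainly that of Gfra2, and the complex then activates RET, which signals through adaptor proteins to the ERK and PI3K pathways. In the brain the family is known for its action on midbrain dopamine neurons, which carry RET and GFRA1, and striatal neurons are a known source of GDNF.

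The series measured messenger RNA in mouse brain after MPTP, a toxin that damages dopamine neurons, followed by levodopa, a dopamine precursor, or by a drug that blocks BTK (Bruton tyrosine kinase, an enzyme of B cells and microglia). There were 5 groups of 3 libraries, while the protocol names 8 mice per group, and nothing in the labels ties each library to its own mouse. The p-values below therefore reflect the spread among these libraries only, and that spread may be technical. The tissue is labelled brain at 6 weeks, with no region, strain, sex or age. Depth was 58149722 to 61998459 counted reads for the 6 libraries with inhibitor, and 63314658 to 68257095 for the 9 without.

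All mice had a 1-week acclimation. Controls stayed on a normal diet for 5 weeks according to the sample labels. The MPTP group received 20 mg/kg/day of MPTP for 1 week and then a normal diet for 4 weeks. The remaining 3 groups received the same MPTP course and then, for 4 weeks, levodopa at 2 mg/kg/day, the inhibitor at 1 µg/kg/day (low dose, also labelled 25 pM) or the inhibitor at 2 µg/kg/day (high dose, also labelled 50 pM). The levodopa route is given as oral in one label and as intraperitoneal in another. Every inhibitor and levodopa library therefore also carries the MPTP treatment, and no group received the inhibitor without MPTP.

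Regional markers of the brain varied from library to library, within groups as well as between them. Control 2 and levodopa 2 stood apart, with summed levels of 8 cerebellar markers of 7130 and 5850 CPM (reads scaled to the library total), against 56.7 to 171 CPM in the other 13 libraries. In the same pair of libraries Slc6a3, the dopamine transporter gene and a defining marker of dopamine neurons, had 0 and 0.129 CPM. Results that rest on these libraries are given with and without them.

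Ret was the member that differed most between groups. Its level, in CPM scaled by TMM, was 24.5, 50.0 and 59.95 in controls 1 to 3. It was 81.4, 102 and 66.3 CPM after MPTP and 73.1, 50.0 and 75.0 CPM after MPTP and levodopa. It was 10.8, 30.0 and 13.4 CPM at the low inhibitor dose and 28.5, 18.0 and 49.4 CPM at the high dose. All 3 MPTP libraries thus lay above all 3 libraries of the controls and of either inhibitor dose, while the MPTP and levodopa groups overlapped and so did the 2 doses. Ordered by group mean, Ret stood at 83.3 ± 18.0 CPM (SD, n = 3) after MPTP, 66.1 ± 13.9 with levodopa, 44.8 ± 18.3 in controls, 32.0 ± 16.0 at the high dose and 18.1 ± 10.4 at the low dose. Each mean in this order was within the sum of the SDs of its neighbour.

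**Figure D1:**
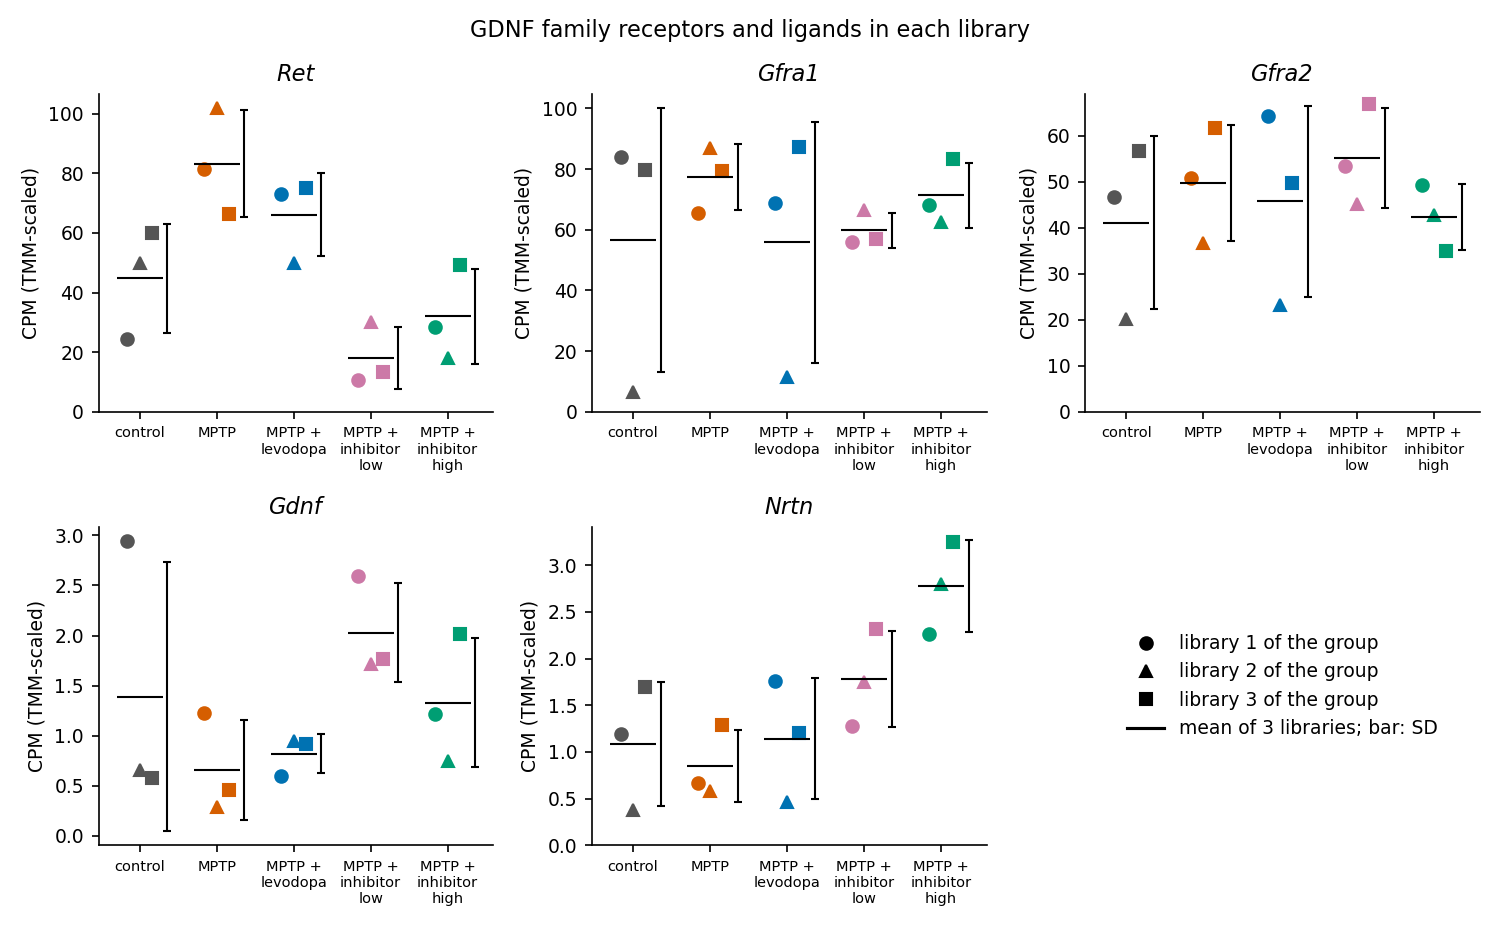
Level of each gene in each library, in CPM scaled by TMM, with 1 panel per gene and the 5 groups along the x axis. Points are libraries (circle 1, triangle 2, square 3), horizontal lines are means of 3 libraries and bars are the SD. Ret is lowest at the low inhibitor dose and highest after MPTP, Gfra1 is lowest in control 2 and levodopa 2, and Nrtn is highest at the high inhibitor dose.

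In the test of any difference among the 5 groups, 1 of the 5 members passed, Ret, with an adjusted p of 0.0463 (edgeR, quasi-likelihood test). The share of all 21821 tested genes that passed was 7.09%. The Ret call ended when any 1 of 10 libraries was left out (control 3, levodopa 1 and 3, MPTP 1, 2 and 3, low-dose 1 and 3, high-dose 1 and 2), with adjusted p-values from 0.0307 to 0.132 over the 15 libraries left out in turn. The other adjusted p-values were 0.199 for Nrtn, 0.398 for Gdnf, 0.888 for Gfra2 and 0.971 for Gfra1.

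Against MPTP alone, Ret fell at the low inhibitor dose by 2.20 on the log2 scale (SE 0.46, 95% interval −3.20 to −1.21, adjusted p = 0.0151), a level 4.61-fold lower. Ret was the 1 member of 5 called in this comparison, in which 8.53% of all tested genes were called, and 1 of 2 members whose groups did not overlap, against 40.8% of all tested genes. At the high dose Ret was 1.38 lower on the log2 scale (fitted value −1.38, SE 0.45, 95% interval −2.35 to −0.41), which did not pass (adjusted p = 0.123). The low-dose call ended when MPTP 2 (−2.03, adjusted p = 0.064), low-dose 1 (−1.92, 0.0529) or low-dose 3 (−2.02, 0.068) was left out. With scores of 3 regional marker lists as covariates, the low-dose difference was −0.07 (SE 0.85, adjusted p = 0.99). The high-dose difference was then 0.10 (SE 0.68, adjusted p = 0.977). Of these scores, that of cortex and hippocampus was 2.55 to 3.07 at the low dose and 1.12 to 2.86 at the high dose. After MPTP it was −2.42 to −1.09. Since it did not overlap between inhibitor and MPTP libraries, this fit can hardly separate region from treatment.

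The levels of dopamine neuron markers are given beside Ret. The summed level of the 12 markers was 430 to 655 CPM after MPTP, 283 to 588 with levodopa, 139 to 445 in controls, 160 to 391 at the high dose and 90.7 to 289 at the low dose. A large part of each sum came from Aldh1a1, which cells outside dopamine neurons also express. Aldh1a1 had 143 to 256 CPM after MPTP, 146 to 252 with levodopa and 93.6 to 226 in controls. At the high dose it had 91.7 to 140 CPM, and at the low dose 37.2 to 111 CPM. Slc6a3 was 78.4, 121 and 54.5 CPM in the 3 MPTP libraries. It was 5.11, 0 and 55.3 CPM in controls 1 to 3 and 73.8, 0.129 and 75.4 CPM with levodopa. It was 0.607 CPM in low-dose 1 and 1.35 CPM in low-dose 3, where Ret was lowest, and 47.1 CPM in low-dose 2, where Ret was 30.0 CPM. At the high dose it was 0.896, 20.3 and 78.0 CPM in libraries 1 to 3. High-dose 3 had the most of both genes, but high-dose 1 had less Slc6a3 and more Ret (28.5 CPM) than high-dose 2 (18.0 CPM). The number of dopamine markers at 0 reads was 0 in all MPTP libraries, up to 3 at the low dose and up to 2 at the high dose. The median difference of the 12 markers between the low dose and MPTP was −2.08 on the log2 scale, and 1 of the 12, Aldh1a1, fell past the threshold, where 8.53% of all genes were called. The median was −1.33 at the high dose, where 0 of the 12 passed. Not every marker of the list was lower. Nr4a2 had 17.6 to 21.3 CPM at the low dose against 8.96 to 30.9 CPM after MPTP. Slc10a4 had 8.04 to 17.5 CPM against 12.7 to 15.1 CPM.

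Other marker lists differed in the same comparisons. Of 6 endothelial and pericyte markers 4 fell at each dose, and their sums were 133 to 187 CPM at the low dose and 111 to 151 CPM at the high dose, against 220 to 332 CPM after MPTP. Of 6 astrocyte markers 3 fell at the low dose and 0 at the high dose. Of all genes 8.53% were called at the low dose and 1.97% at the high dose. Some members of these lists were not lower at the low dose than after MPTP. Gfap had 145 to 299 CPM against 79.7 to 231 CPM, and Slc1a3 had 593 to 633 CPM against 377 to 635 CPM. The endothelial marker Cldn5 had 11.9 to 27.9 CPM against 16.7 to 21 CPM. Of 6 choroid plexus markers 3 rose at the low dose and 2 at the high dose, with median log2 differences of 2.56 and 2.07. Ttr, the transthyretin gene, had 846 to 1330 CPM at the low dose against 1.20 to 7.64 CPM after MPTP. Otx2 of the same list was not higher, with 6.98 to 10.1 CPM at the low dose against 7.05 to 26.1 CPM. In bulk tissue, fewer cells of a type and less RNA per cell cannot be told apart, and the part of regional and cell-type content in the Ret difference was not tested.

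Ret did not follow Slc6a3 in every library. In control 2 and levodopa 2, the pair rich in cerebellar markers, Slc6a3 was at 0 and 0.129 CPM and Ret at 50.0 CPM in each. This was above all 6 inhibitor libraries, but only just above high-dose 3 (49.4 CPM). The part of regional content in these Ret levels was not tested. The dopamine list in control 2 and levodopa 2 summed to 252 and 283 CPM. Of this Aldh1a1, a gene that cells outside dopamine neurons also express, made up 213 and 252 CPM, while 5 and 3 of the 12 markers were at 0. Control 2 and levodopa 2 are in neither group of the low-dose comparison with MPTP, and without them the fitted Ret difference stayed at −2.20. Its adjusted p, which rests on the shared spread, became 0.00603, in a fit that called 5288 of 22324 genes in this comparison.

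**Figure D2:**
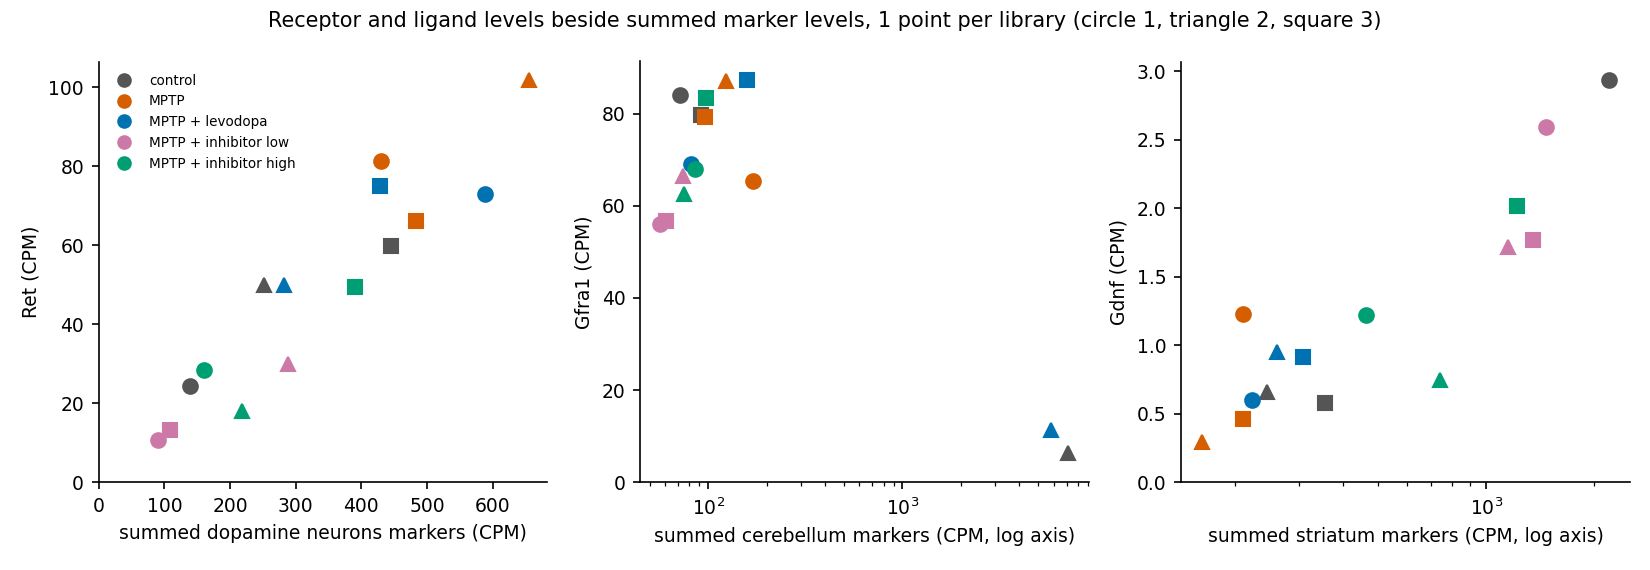
Level of Ret against the summed dopamine neuron markers (12 genes, linear axis), Gfra1 against the summed cerebellar markers (8 genes, log axis) and Gdnf against the summed striatal markers (8 genes, log axis), all in CPM, with 1 point per library coloured by group. The low-dose libraries lie at the lower left for Ret, control 2 and levodopa 2 stand alone at the lower right for Gfra1, and control 1 and low-dose 1 lie at the upper right for Gdnf.

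MPTP alone did not differ from controls past the threshold in any member. Ret was higher by 0.89 on the log2 scale (SE 0.44, 95% interval −0.07 to 1.85, adjusted p = 0.717), with every MPTP library above every control. Of all tested genes 0% were called in this comparison and 13.0% had groups that did not overlap. The edgeR test called 0 genes here, with an unadjusted p under 0.05 for 1445, whereas DESeq2 called 53, none of them a member. The fitted differences of Gfra1 (0.45), Gfra2 (0.27), Gdnf (−1.07) and Nrtn (−0.35) had 95% intervals that include 0. The median over the 5 members was 0.27, and −0.01 over all genes. Without control 2 and levodopa 2 the difference was −0.085 for Gfra1 and −0.057 for Gfra2, so their direction rests on control 2.

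Levodopa after MPTP likewise gave 0 called members. Ret differed from MPTP alone by −0.33 on the log2 scale (SE 0.44, 95% interval −1.29 to 0.62, adjusted p = 0.954), and 0 members had groups that did not overlap. Of all genes 0% were called and 9.59% did not overlap. The unadjusted p was under 0.05 for 645 genes in the edgeR fit, and 2 genes were called by DESeq2, neither of them a member. The values of the other members were −0.47 for Gfra1, −0.12 for Gfra2, 0.31 for Gdnf and 0.43 for Nrtn. Without control 2 and levodopa 2 those of Gfra1 and Gfra2 turned to 0.0091 and 0.19.

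Gfra1, the main co-receptor of GDNF, varied less between groups than it did within the control and levodopa groups. Its level was 83.9, 6.47 and 79.6 CPM in controls, 65.5, 87.0 and 79.3 CPM after MPTP, and 69.0, 11.35 and 87.25 CPM with levodopa. It was 56.05, 66.5 and 56.8 CPM at the low dose, and 68.0, 62.6 and 83.4 CPM at the high dose. The low values belong to the same pair of libraries that were rich in cerebellar markers, and the other 13 lay between 56.05 and 87.25 CPM, a 1.56-fold range. Its groups overlapped in each of the 7 comparisons made. The fitted difference from MPTP was −0.37 at the low dose (95% interval −1.96 to 1.22) and −0.11 at the high dose (−1.70 to 1.47), with all 15 libraries in the fit. Without control 2 and levodopa 2, which belong to neither group but widen the shared spread, the SE of the low-dose difference fell from 0.73 to 0.14, and its adjusted p was 0.077, while that of the high-dose difference was 0.629. Whether the cerebellar content accounts for the low Gfra1 was not tested.

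Gfra2, the main co-receptor of neurturin, was lowest in the same libraries. Its level was 46.65, 20.1 and 56.6 CPM in controls, 50.9, 36.6 and 61.6 CPM after MPTP, and 64.3, 23.3 and 49.7 CPM with levodopa. The low dose gave 53.4, 45.25 and 66.8 CPM, and the high dose 49.3, 42.8 and 34.9 CPM. Outside control 2 and levodopa 2 it ranged 1.91-fold, from 34.9 to 66.8 CPM, and all 5 groups overlapped one another. Its group means ran from 41.1 ± 18.8 CPM in controls to 55.2 ± 10.9 CPM at the low dose. The differences from MPTP were 0.15 at the low dose and −0.23 at the high dose (adjusted p = 0.847 and 0.811).

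Because Gfra1 was nearly level outside that pair of libraries while Ret was not, the ratio of Ret to Gfra1 reads separated the inhibitor groups from MPTP. The ratio of their CPM was 0.193 to 0.592 with inhibitor (6 libraries) and 0.836 to 1.24 after MPTP alone (3 libraries). It was 0.292 in control 1, within the inhibitor range, 0.753 in control 3, and 7.73 and 4.41 in control 2 and levodopa 2. In levodopa 1 and 3 it was 1.06 and 0.86. Ret alone did not overlap between MPTP and either dose, so the ratio restates Ret and is no separate result. Groups also did not overlap for 40.8% of all tested genes at the low dose and 39.8% at the high dose. The ratio is a description of these libraries and was not tested.

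The ligand genes were far less abundant than the receptors. On a scale that also divides by length (RPKM, CPM divided by the merged exon length in kilobases), the median over 15 libraries was 0.258 for Gdnf and 1.26 for Nrtn, against 7.39 for Ret, 12.4 for Gfra1 and 13.9 for Gfra2. Gdnf rested on 20 to 198 reads per library and Nrtn on 23 to 193, so their values carry more counting error than those of the receptors. The stretches of 250 bases just before the RefSeq starts of these genes are shown to place the ligand genes beside their levels. A further RefSeq start of Gdnf lies within the gene and is not shown. They come from GRCm38.p6, for Gdnf from chr15:7809798-7810047 on the plus strand and for Nrtn from chr17:56757549-56757798 on the minus strand. Capitals mark matches to the motifs named after them.

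Gdnf: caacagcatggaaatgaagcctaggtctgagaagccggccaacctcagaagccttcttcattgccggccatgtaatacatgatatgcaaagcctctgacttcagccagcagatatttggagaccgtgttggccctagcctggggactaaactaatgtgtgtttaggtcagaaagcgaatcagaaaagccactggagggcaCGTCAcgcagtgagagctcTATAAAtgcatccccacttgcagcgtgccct
Nrtn: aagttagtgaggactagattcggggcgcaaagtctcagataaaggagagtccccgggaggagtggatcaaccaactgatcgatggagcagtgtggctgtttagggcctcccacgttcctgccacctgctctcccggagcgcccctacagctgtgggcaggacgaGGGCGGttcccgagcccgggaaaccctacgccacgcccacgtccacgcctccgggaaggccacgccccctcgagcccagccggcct

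The motifs searched, on both strands, were the TATA box TATAAA, the cyclic AMP response element TGACGTCA and its short form TGACG, the NR4A response element AAAGGTCA, which the factor named in the series title (Nurr1, from Nr4a2) can bind, and the GC box GGGCGG. The full response element TGACGTCA contains its short form. The Gdnf stretch holds TATAAA at −31 to −26 from the start and TGACG on the reverse strand, read as CGTCA here, at −50 to −46. The Nrtn stretch holds GGGCGG at −86 to −81. Of 32851 mouse promoter stretches of this length, 12.4% hold TATAAA, 17.8% TGACG, 1.55% TGACGTCA, 1.34% AAAGGTCA and 32.7% GGGCGG. GC content was 50.8% for Gdnf and 64.8% for Nrtn, against a median of 52.4%. These matches describe the letters only.

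Gdnf had its highest value in a control library. Its level was 2.94, 0.657 and 0.579 CPM in controls, 1.23, 0.293 and 0.461 CPM after MPTP, and 0.601, 0.950 and 0.915 CPM with levodopa. It was 2.60, 1.72 and 1.77 CPM at the low dose and 1.22, 0.751 and 2.02 CPM at the high dose. The 3 low-dose libraries lay above all MPTP and levodopa libraries, but control 1 exceeded all of them. The fitted difference from MPTP was 1.62 at the low dose (SE 0.66, 95% interval 0.19 to 3.05, adjusted p = 0.145) and 1.01 at the high dose (SE 0.65, −0.41 to 2.43, 0.453), and neither passed.

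Markers of striatal neurons were highest in the same library as Gdnf. The 8 markers summed to 2200 CPM in control 1, 1150 to 1470 CPM in the low-dose libraries and 462 to 1220 CPM in the high-dose libraries. They summed to 161 to 210 CPM after MPTP and 223 to 308 CPM with levodopa, and to 245 and 356 CPM in controls 2 and 3. Every striatal marker had reads in every library, and 3 of the 8 rose at the low dose against MPTP. The part of striatal content in the Gdnf levels was not tested.

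Nrtn was highest at the high inhibitor dose. Its level was 1.19, 0.378 and 1.69 CPM in controls, 0.673, 0.586 and 1.29 CPM after MPTP, and 1.76, 0.467 and 1.21 CPM with levodopa. It was 1.28, 1.75 and 2.31 CPM at the low dose and 2.27, 2.80 and 3.25 CPM at the high dose. The high-dose libraries lay above every control, MPTP and levodopa library, and overlapped only the low dose. Lowest of all were control 2 and levodopa 2.

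Against MPTP, Nrtn at the high dose had a fitted difference of 1.70 (SE 0.55, 95% interval 0.51 to 2.90, adjusted p = 0.122), a 3.26-fold higher level that did not pass. In that comparison 0 of 5 members were called, against 1.97% of all genes, and 2 members, Ret and Nrtn, had groups that did not overlap, against 39.8% of all genes. At the high dose 4045 genes had an unadjusted p under 0.05, among them Ret and Nrtn. DESeq2 called both members (adjusted p = 0.033 and 0.0316), among 1620 genes called in all. With control 2 and levodopa 2 left out of the fit, Nrtn passed at the high dose (1.70, adjusted p = 0.0127). It also passed at the low dose (1.06, adjusted p = 0.0373), where it had not with all libraries (1.07, SE 0.55, adjusted p = 0.24). Without those libraries, 2477 of 22324 genes were called at the high dose and 5288 at the low dose. With the regional covariates the Nrtn difference was 3.09 at the high dose (SE 0.57, adjusted p = 0.14) and 2.88 at the low dose (SE 0.72, adjusted p = 0.312). That of Gdnf was 0.33 (SE 1.25) at the high dose and 0.65 (SE 1.72) at the low dose. As stated for Ret, the fit with these covariates can hardly separate region from treatment. Each ligand had a positive fitted difference from MPTP at each dose, and 0 of these 4 passed in the fit of all 15 libraries without covariates.

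**Figure D3:**
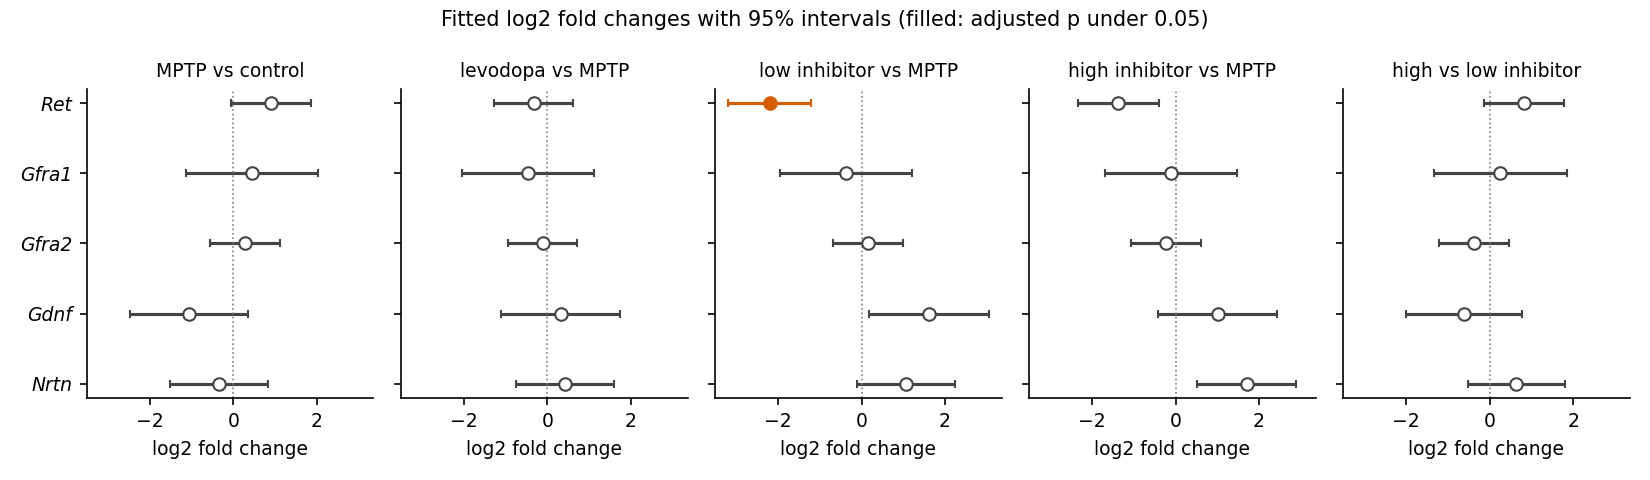
Fitted log2 fold changes of the 5 genes with 95% intervals in 5 comparisons, from edgeR's quasi-likelihood fit of all 15 libraries. A filled point passed an adjusted p of 0.05, which only Ret at the low dose against MPTP did (−2.20).

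The 2 inhibitor doses were not separated by any member. High minus low, the fitted difference was 0.82 for Ret (95% interval −0.14 to 1.79), 0.26 for Gfra1 (−1.33 to 1.84), −0.38 for Gfra2 (−1.22 to 0.46), −0.61 for Gdnf (−2.00 to 0.78) and 0.64 for Nrtn (−0.52 to 1.80). Each adjusted p was 1. The edgeR test called 0% of all genes, the unadjusted p was under 0.05 for 486, and 2 were called by DESeq2, neither of them a member. Members without overlap numbered 0, against 10.6% of all genes. These intervals are wide enough to hold differences of 2-fold in each of the 5 genes, so the doses cannot be said to act alike.

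The comparisons with untreated controls share the inhibitor libraries with those above. With the low dose, 0 of 5 members were called, against 5.40% of all genes, and 0 had groups without overlap, against 26.2%. Ret had the smallest p of the members there (−1.31, SE 0.45, 95% interval −2.28 to −0.34, adjusted p = 0.101). DESeq2 called Ret (adjusted p = 0.0325), among 2689 genes called in all. In all 5326 genes had an unadjusted p under 0.05, of the members only Ret. At the high dose 0 members were called, against 0.376% of all genes, and 1 member, Nrtn, had groups without overlap, against 27.4%. Nrtn was 1.35 higher (SE 0.54, 95% interval 0.17 to 2.53, adjusted p = 0.203), and Ret differed by −0.49 (−1.44 to 0.47). The unadjusted p was under 0.05 for 4370 genes, of the members only Nrtn, and 1374 genes were called by DESeq2, none of them a member. Without control 2 and levodopa 2, the edgeR difference of Nrtn from controls was 0.94 at the high dose (adjusted p = 0.199). That of Ret was then −1.22 at the low dose (adjusted p = 0.134) and −0.40 at the high dose (adjusted p = 0.706).

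Other genes of the pathway were counted from a list of 43, of which 39 passed the filter. They comprise further ligands and co-receptors, alternative receptors and binding partners, adaptors and kinases of RET signalling, and transcriptional targets and feedback inhibitors. Against MPTP, 3 rose and 6 fell at the low dose (8.53% of all genes were called), while 2 rose and 2 fell at the high dose (1.97% of all genes). Against controls, 2 rose and 3 fell at the low dose (5.40% of all genes) and 0 were called at the high dose (0.376% of all genes), where 9 had an unadjusted p under 0.05. For MPTP against controls, levodopa against MPTP and high against low dose, 0 of 39 were called, and 2, 1 and 1 had an unadjusted p under 0.05, against 1445, 645 and 486 of all 21821 genes. The median difference of the 39 at the low dose against MPTP was −0.02 on the log2 scale, and −0.0045 over all genes.

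The genes that rose belong to the targets and feedback inhibitors of ERK signalling, which other receptors drive as well. Etv5, an ETS transcription factor induced downstream of RET, rose from 42.7 ± 6.06 CPM after MPTP to 83.2 ± 8.24 CPM at the low dose (log2 difference 0.96, SE 0.14, adjusted p = 0.00367). It also rose to 64.4 ± 4.17 CPM at the high dose (0.59, adjusted p = 0.049). Dusp6, which encodes a phosphatase that inactivates ERK, rose from 20.5 ± 1.95 CPM to 49.9 ± 10.4 CPM at the low dose (1.29, SE 0.23, adjusted p = 0.00794) and to 42.8 ± 12.8 CPM at the high dose (1.07, adjusted p = 0.0363). Spry2, an inhibitor of receptor tyrosine kinase signalling, rose at the low dose from 17.8 ± 3.72 to 34.9 ± 1.68 CPM (0.97, adjusted p = 0.0257). Ret moved in the other direction in the same libraries, and the targets and inhibitors Etv4, Spry1, Spry4, Spred1 and Spred2 did not pass in either comparison. Lrig1, listed with the same targets and inhibitors, fell past the threshold at the low dose, with its values in the next paragraph.

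Of the 6 genes that fell at the low dose, 3 belong to the adaptors and kinases. Sos1, an activator of RAS, fell by 0.64 on the log2 scale at the low dose (adjusted p = 0.00732) and by 0.59 at the high dose (0.0256). Frs2, an adaptor that binds RET and FGF receptors, fell by 0.50 (0.0291) and by 0.58 (0.0391). Gab2, a docking protein, fell by 0.71 at the low dose (0.0145). Lrig1, an inhibitor of RET and EGF receptor signalling, fell from 102 ± 10.9 to 39.9 ± 12.2 CPM at the low dose (−1.35, SE 0.31, adjusted p = 0.0206). Ncam1, a cell adhesion molecule that can receive GDNF without RET, fell by 0.51 (0.032), and the syndecan gene Sdc3 by 0.57 (0.0341). Of these 9 low-dose calls, those of Etv5, Dusp6 and Sos1 held with each of the 6 libraries left out in turn, and 0 of the 4 high-dose calls did. With the regional covariates 0 of the 9 low-dose calls and 0 of the 4 high-dose calls held (adjusted p-values of 0.485 to 0.998 and 0.398 to 0.825). Under these covariates the low-dose difference was 0.92 for Etv5, 0.34 for Dusp6, −0.51 for Sos1 and −0.06 for Lrig1. As stated for Ret, the fit with these covariates can hardly separate region from treatment.

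Against controls at the low dose, Dusp6 (1.29, adjusted p = 0.0154) and Etv5 (0.72, 0.0186) rose. Lrig1 (−1.30, 0.034), Frs2 (−0.50, 0.0406) and Sos1 (−0.42, 0.0473) fell. Of these 5 calls 0 held with every library left out in turn, and 0 held with the regional covariates. Their calls share the low-dose libraries with the comparison against MPTP. In the same libraries, markers of the cortex and hippocampus summed to 286 to 409 CPM at the low dose and 127 to 350 CPM at the high dose, against 19.1 to 28.4 CPM after MPTP, and markers of the thalamus and midbrain to 176 to 353 and 286 to 633 CPM, against 842 to 1120 CPM. The part of this regional difference in the pathway calls was not tested.

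**Figure D4:**
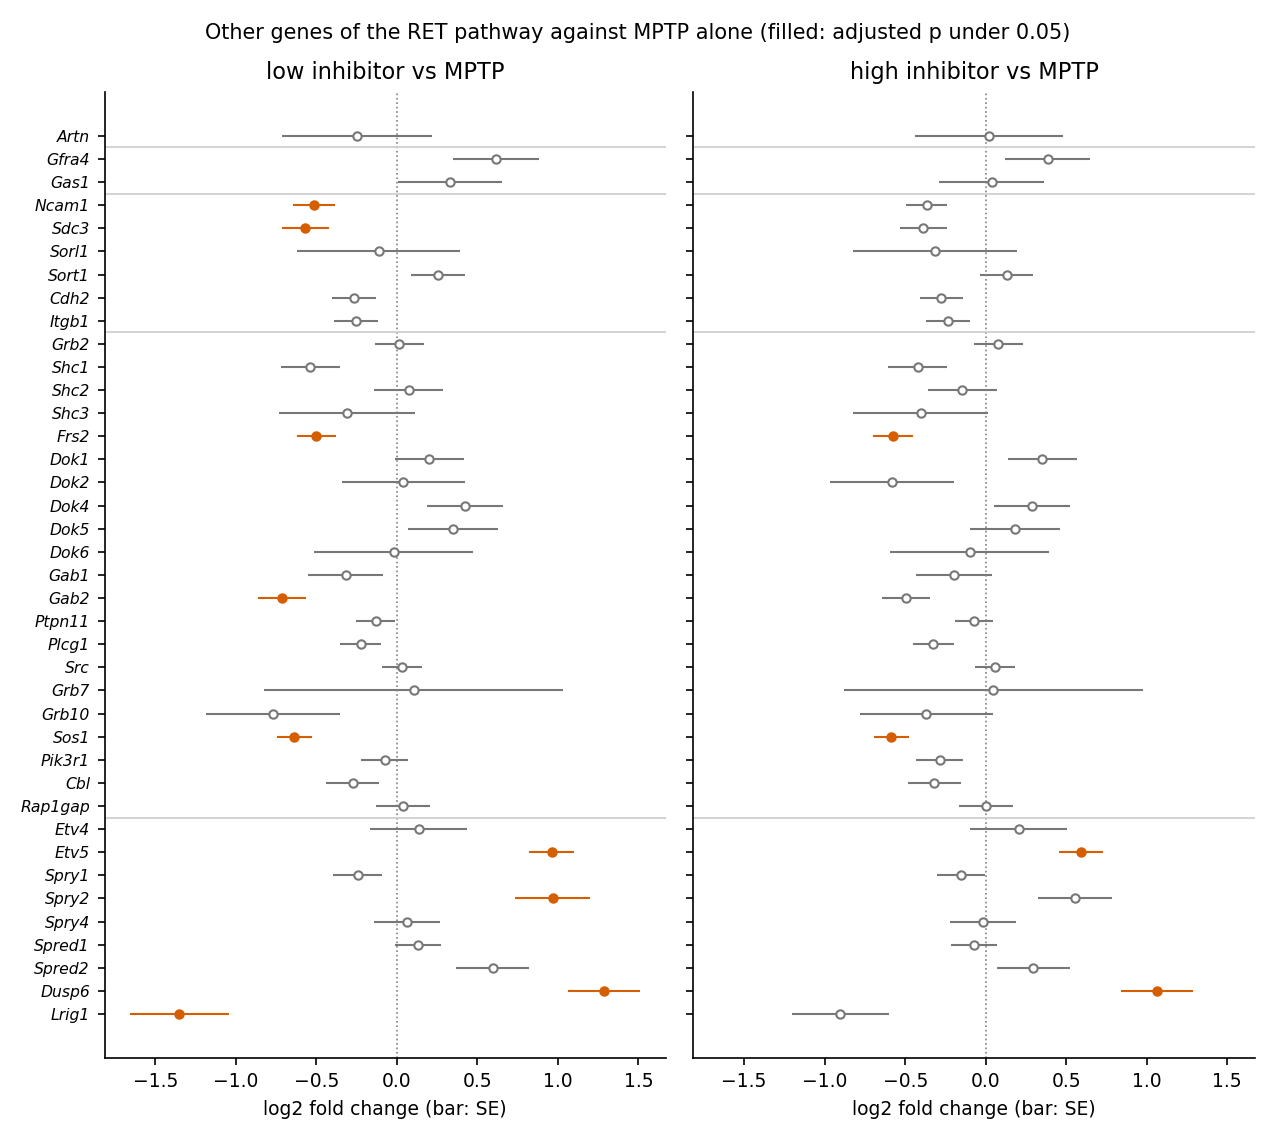
Fitted log2 fold changes (bar: SE) of the 39 tested pathway genes at each inhibitor dose against MPTP alone, ordered by role with grey lines between roles. Filled points passed an adjusted p of 0.05: 9 at the low dose and 4 at the high dose.

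Among the other ligands and co-receptors, Gfra4, the co-receptor of persephin, was the abundant one. It had 22.4 ± 2.69 CPM after MPTP, 34.3 ± 2.89 CPM at the low dose and 29.2 ± 2.50 CPM at the high dose, and its differences from MPTP did not pass (0.62, adjusted p = 0.165, and 0.39, adjusted p = 0.482). The artemin gene Artn had group means of 0.326 to 0.621 CPM. The persephin gene Pspn, the artemin co-receptor gene Gfra3 and Gdf15 had at most 0.135 CPM in any library. Gfral, the receptor gene for GDF15, had 0 reads in all 15 libraries, which allows up to 0.0516 CPM in the smallest of them (3 reads, counting error only).

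The genes lie on 5 chromosomes of GRCm38 (GENCODE M21). Ret is at 6:118151745-118197718 and Gfra1 at 19:58235604-58455909, both on the minus strand. Gfra2 is at 14:70890120-70979838 and Gdnf at 15:7810846-7837575, on the plus strand. Nrtn is at 17:56751325-56757530 on the minus strand. The counts cover whole genes, without separating exons, UTRs or isoforms. Only Gfra1 overlaps another annotated gene in an exon, the antisense gene Gm16277 at its end, which the files do not list, and since the strand setting of the counting is not given here, its reads could count towards Gfra1.

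The genes whose pattern over the 15 libraries was most like each member were found among 14225 genes, by Pearson's r of log2 CPM. For Ret these included Ehd4 (0.943), Bbox1 (0.941), Entpd5 (0.935) and Slc5a6 (0.934), and over the 13 libraries without control 2 and levodopa 2 the r of these 4 was 0.937 to 0.957. For Gfra1 they were Col25a1 (0.989), Scn3a (0.986), Stc1 (0.983), Tmem176a (0.981) and Spink10 (0.979), but over 13 libraries their r was only 0.494 to 0.753, so the likeness rests on those libraries. For Gfra2 they were LOC102640133, P3h2, Dtx4, Unc13b and Zfp853 (0.919 to 0.927, and 0.683 to 0.772 over 13). For Gdnf they were Slc4a11 (0.947), the striatal marker and enkephalin gene Penk (0.887), Rem2 (0.885), Lzts3 (0.877) and C1qtnf12 (0.876), with 0.89 to 0.975 over 13. For Nrtn they were Timm17a (0.915), Mrpl36 (0.908), Rnf113a1 (0.904), Rps3 (0.894) and Commd1 (0.893), with 0.796 to 0.889 over 13. These r describe the libraries, which share groups and regional content.

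The members themselves did not vary as a set. Over the 15 libraries Gfra1 and Gfra2 had r = 0.788, but over the 13 without control 2 and levodopa 2 it was −0.422. Ret and Gdnf had −0.674 over 15 and −0.671 over 13. Ret and Gfra1 had 0.01 over 15 and 0.709 over 13. The summed RPKM of the ligands was 1.96 to 3.72 with inhibitor (6 libraries) and 0.548 to 1.96 without (9 libraries), while that of the co-receptors was 23.5 to 31.9 in 13 libraries and 6.87 and 8.66 in control 2 and levodopa 2.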

How the data were processed

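The deposited values are integer counts of reads for each of 45777 gene symbols, with a separate file for every library. The libraries were made with a TruSeq Stranded mRNA kit, per the labels' protocols. The authors processed the reads with HISAT2 2.1.0, StringTie 2.1.3b, Trimmomatic and bcl2fastq 2.20.0 on GRCm38/mm10, per the submitters' processing notes. The gene annotation used, whether counting used strand, and how shared reads were counted: not given in the sources used here. The files of the inhibitor libraries hold a different number of empty trailing columns from the other 9, so a difference in handling cannot be told apart from the treatment.

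Groups and replicate numbers come from the sample labels. Counts were tested with edgeR 4.0.16 (R 4.3.3), using TMM scaling, its default expression filter (filterByExpr, with the groups given), a single quasi-likelihood model of the 15 libraries with no covariate, and Benjamini-Hochberg correction over 21821 genes with a threshold of 0.05. Standard errors were derived from the fitted difference and its F statistic. Levels are CPM scaled by TMM, and RPKM uses merged GENCODE M21 exons. The precision of a level rests on its reads.

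No pair of libraries of 1 group agreed within sampling noise (chi-square per degree of freedom 29.3 to 468). The test was checked on simulated counts with known changes. The alternatives were RLE size factors, DESeq2 1.42.0, a fit without any filter, a minimum of 5 CPM in 3 libraries, a replicate block, regional covariates (scores of the cerebellum, cortex and hippocampus, and thalamus and midbrain lists), only the groups compared, leaving out control 2 and levodopa 2, and leaving out each library in turn.

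The members, the lists and these choices were made with earlier results of these data known. The text names the 5 members in every comparison, pathway genes past the threshold (up to 8 per comparison by p), the 5 genes most like each member (at least 1 CPM on average, leaving out symbols of Gm plus digits and those ending in Rik) and markers beside a result. Of the genes most like Ret, 1 is not reported here. Sdc3, Gfra4, Artn and the near-silent relatives were named after their values were seen. Promoter stretches come from the RefSeq table (GRCm38.p6), in which 3 of the 5 genes were found.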

Additional observations from a re-analysis of the deposited data

How the results depend on the processing

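Of 476 log2 fold changes of members under an alternative, 424 kept their direction and side of the threshold, 4 fell short of it, 8 newly passed and 40 changed sign. In the fit of all 15 libraries only Ret at the low dose against MPTP had passed, so the 4 all belong to that difference. For the other differences, keeping the side of the threshold meant not passing again. The 424 are therefore no measure of how stable the Ret call was. Of 252 values for pathway genes, 148 kept both, 102 fell short and 2 changed sign. The cause of each change was not tested.

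The number of members called in the test among 5 groups was 0 with no filter (Ret adjusted p = 0.0611), 0 with the replicate block (0.0594), 0 with regional covariates (0.827), 2 without control 2 and levodopa 2 (Ret and Nrtn), and 0 to 1 leaving out each library. At the low dose against MPTP it was 0 with regional covariates, 2 without control 2 and levodopa 2, 2 with only the groups compared (Gdnf adjusted p = 0.0465) and 0 to 1 leaving out each library. At the high dose against MPTP it was 1 without control 2 and levodopa 2, 2 with only the groups compared (Ret 0.0336, Nrtn 0.017) and 2 with DESeq2. At the low dose against controls it was 1 with DESeq2. Under the filter of 5 CPM Gdnf and Nrtn gave no value.

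Signs that turned with regional covariates were these. MPTP against control: Gfra1 −0.39, Gfra2 −0.24. Levodopa against MPTP: Gfra1 0.66, Gfra2 0.44. Low dose against MPTP: Gfra1 0.56, Gab2 0.0056. High dose against MPTP: Ret 0.10, Gfra1 0.44, Gfra2 0.087. High against low dose: Gfra1 −0.12. Low dose against control: Ret 0.76, Gdnf −0.50, Lrig1 0.30. High dose against control: Ret 0.92, Gfra2 −0.15.

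Signs that turned without control 2 and levodopa 2 were Gfra1 −0.085 and Gfra2 −0.057 for MPTP against control, Gfra1 0.0091 and Gfra2 0.19 for levodopa against MPTP, Gfra1 −0.46 for the low dose against control, and Gfra1 −0.20 and Gfra2 −0.29 for the high dose against control. Leaving out 1 library at a time, signs turned in the following ranges. MPTP against control gave Gdnf −1.89 to 0.10, Gfra1 −0.086 to 0.85, Gfra2 −0.058 to 0.56 and Nrtn −0.79 to 0.10. Levodopa against MPTP gave Nrtn −0.018 to 0.86, Gfra1 −0.94 to 0.0089, Gfra2 −0.44 to 0.19 and Gdnf −0.034 to 1.13. The low dose gave Gfra2 −0.033 to 0.34 against MPTP and Gfra1 −0.46 to 0.48 against control. The high dose against control gave Gdnf −0.50 to 1.10, Gfra1 −0.20 to 0.74 and Gfra2 −0.29 to 0.32.

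The replicate numbers did not meet the rule for pairing in any comparison, as deviations of libraries with equal number correlated at −0.297 to 0.239, and 1 to 4 of 6 libraries were closest to their own number. The replicate block turned Gdnf at the high dose against control to 0.18, and moved the count of all genes called from 429 to 226 at the high dose against MPTP and from 82 to 46 against control.

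Counts of all genes called moved further elsewhere. At the low dose against MPTP, 1861 became 1224 with no filter, 1 with regional covariates, 5288 without control 2 and levodopa 2, 4253 with only the groups compared, 3280 with DESeq2 and 421 to 1300 leaving out each library. At the high dose, 429 became 214, 12, 2477, 3560, 1620 and 18 to 138. At the low dose against control, 1178 became 571, 0, 1859, 11, 2689 and 78 to 1444, and at the high dose 82 became 35, 3, 165, 3, 1374 and 15 to 65, with 256 under the filter of 5 CPM. Among 5 groups 1548 became 1023 with no filter, 2 with covariates, 3509 without control 2 and levodopa 2, 4054 with DESeq2 and 611 to 1949 leaving out each library. DESeq2 called 53, 2 and 2 genes where edgeR called 0.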
